A study of Mus musculus with 18 samples.

Results

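The enzymes of the tricarboxylic acid (TCA) cycle described here are the products of 9 genes chosen by name: Cs, Idh2, Idh3a, Idh3b, Ogdh, Dlst, Suclg1, Fh1 and Mdh2. All 9 were found in the count table, which lists 30583 genes, and all 9 passed the filter on low counts that left 16311 genes for testing. The study followed gene expression in the mouse heart after myocardial infarction. Male C57BL/6JR mice aged 12 weeks, with no genetic modification named in the labels, had the left anterior descending coronary artery ligated and were sampled at 1 of 5 times after it: 10 min, then 1, 6, 24 and 72 h. Sham mice had the same operation without the ligature being tied and stand at 0 h. Each of the 6 groups holds 3 libraries, 18 in all, made from poly(A)-selected RNA of the infarcted region of the left ventricle. The sham group gives 1 time only, so time after the operation has no control of its own at the later times, and time and ligation cannot be told apart.

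The TCA cycle runs in the mitochondrial matrix, where it oxidises the acetyl group of acetyl-CoA to carbon dioxide and passes the electrons to NADH and FADH2 for the respiratory chain. Heart muscle is dense in mitochondria and obtains most of its ATP from oxidative metabolism, chiefly of fatty acids, so the enzymes of the cycle are abundant in cardiomyocytes. Ischaemia removes the oxygen that accepts these electrons, and infarcted muscle is later invaded by inflammatory cells and fibroblasts.

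Library totals were between 18199172 and 25062351 counts. The labels name cardiomyocytes as the cell type, but they describe no cell separation, and the libraries hold RNA of several cell types. The summed level of 12 cardiomyocyte markers was 70760 to 76800 CPM (counts scaled to a common library size) in sham, 31830 to 48130 at 24 h and 18770 to 25040 at 72 h. Over the same groups the summed level of 8 macrophage markers was 298 to 343, 638 to 869 and 3512 to 4639 CPM, and that of 7 fibroblast markers was 794 to 902, 920 to 1393 and 12420 to 16040 CPM. Mitochondrially encoded transcripts took 23.8 to 26.1% of counts in sham and 8.41 to 10.5% at 72 h. Of the 6 h libraries, replicate 1 stood apart with 151 CPM of atrial markers, against at most 3.41 CPM in each of the other 17 libraries. In bulk tissue, fewer cells of a type and less RNA per cell cannot be told apart. The design gives 3 mice a group, but no label ties a library to 1 mouse, so p-values measure the spread between these libraries. Without 6 h replicate 1, 0 of the 9 genes were called at 6 h, as with it.

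The promoter windows of 8 of the 9 genes were matched by symbol in RefSeq (GRCm38.p6), each covering 250 bases before to 50 after an annotated transcription start; Idh3a was not among them. Because the 9 genes moved together, 4 windows are shown, from 150 bases before to 10 after the start and in the direction of transcription. Idh2 is shown as the gene with the largest fall at 72 h, Suclg1 as the one with the largest fall at 24 h, Dlst as the one with the smallest fall at 24 h, and Idh3b as the gene with the smallest adjusted p at 72 h. Capitals mark matches, on either strand, to the 5 motifs described after the sequences.
Idh2, chr7:80115341-80115500, minus strand: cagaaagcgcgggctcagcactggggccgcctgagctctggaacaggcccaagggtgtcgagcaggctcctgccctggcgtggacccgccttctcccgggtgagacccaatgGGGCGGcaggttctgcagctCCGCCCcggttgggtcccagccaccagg
Suclg1, chr6:73248355-73248514, plus strand: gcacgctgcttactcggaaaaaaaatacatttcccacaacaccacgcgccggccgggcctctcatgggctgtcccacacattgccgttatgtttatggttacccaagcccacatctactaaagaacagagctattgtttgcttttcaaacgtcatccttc
Dlst, chr12:85110683-85110842, plus strand: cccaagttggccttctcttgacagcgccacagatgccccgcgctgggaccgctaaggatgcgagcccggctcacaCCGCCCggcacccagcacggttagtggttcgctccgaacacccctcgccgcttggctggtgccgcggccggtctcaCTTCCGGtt
Idh3b, chr2:130284442-130284601, minus strand: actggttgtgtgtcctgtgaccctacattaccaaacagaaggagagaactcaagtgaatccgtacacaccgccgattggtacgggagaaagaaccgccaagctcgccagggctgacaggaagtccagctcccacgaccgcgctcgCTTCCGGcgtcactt

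5 motifs were searched on both strands of the windows, and any overlap between them was allowed. GGGCGG, the core of Sp1 and KLF sites, was found in the windows of 6 of the 8 genes (Cs, Idh2, Ogdh, Dlst, Fh1 and Mdh2) and in 35.7% of all 32851 windows. CCGGAAG, an ETS motif of the kind GABPA binds, was found for 2 of 8 (Idh3b and Dlst) and in 8.9% of all windows. AANATGGC, a YY1 motif, was found for 2 of 8 (Idh3b and Ogdh) and in 6.1% of windows. CGCATGCG, the core of the NRF1 motif, was found for 1 of 8 (Ogdh, which has 6 windows) and in 1.9% of windows. TNAAGGTCA, the extended half-site of the oestrogen-related receptors, was found for 0 of 8 and in 1.3% of windows. A gene was counted if any of its windows matched, which gives Ogdh with its 6 windows more openings. The shares of all windows are per window, so counts and shares are not in the same unit. These matches describe letters only. Idh2 and Suclg1, the genes with the largest falls at 72 h and 24 h, differ in what their windows hold: Idh2 has 2 GGGCGG matches and Suclg1 has none of the 5 motifs.

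None of the 9 genes was called different from sham through 6 h, and all 9 were lower at 24 h and 72 h. Expressed as the mean of the 9 genes on the log2 scale, their level was 99.0% of sham at 10 min, 100.5% at 1 h, 98.7% at 6 h, 63.6% at 24 h and 29.9% at 72 h. At 6 h the log2 fold changes of the 9 lay between -0.12 and 0.05. At 24 h all 9 fell, by 0.51 (Dlst) to 0.78 (Suclg1) on the log2 scale, and at 72 h all 9 fell, by 1.41 (Idh3a) to 2.24 (Idh2). In every one of the 9 genes, each 24 h library and each 72 h library was below each sham library. How many of all genes tested were separated in this way was not counted, so the separation is a description only.

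**Figure D1:**
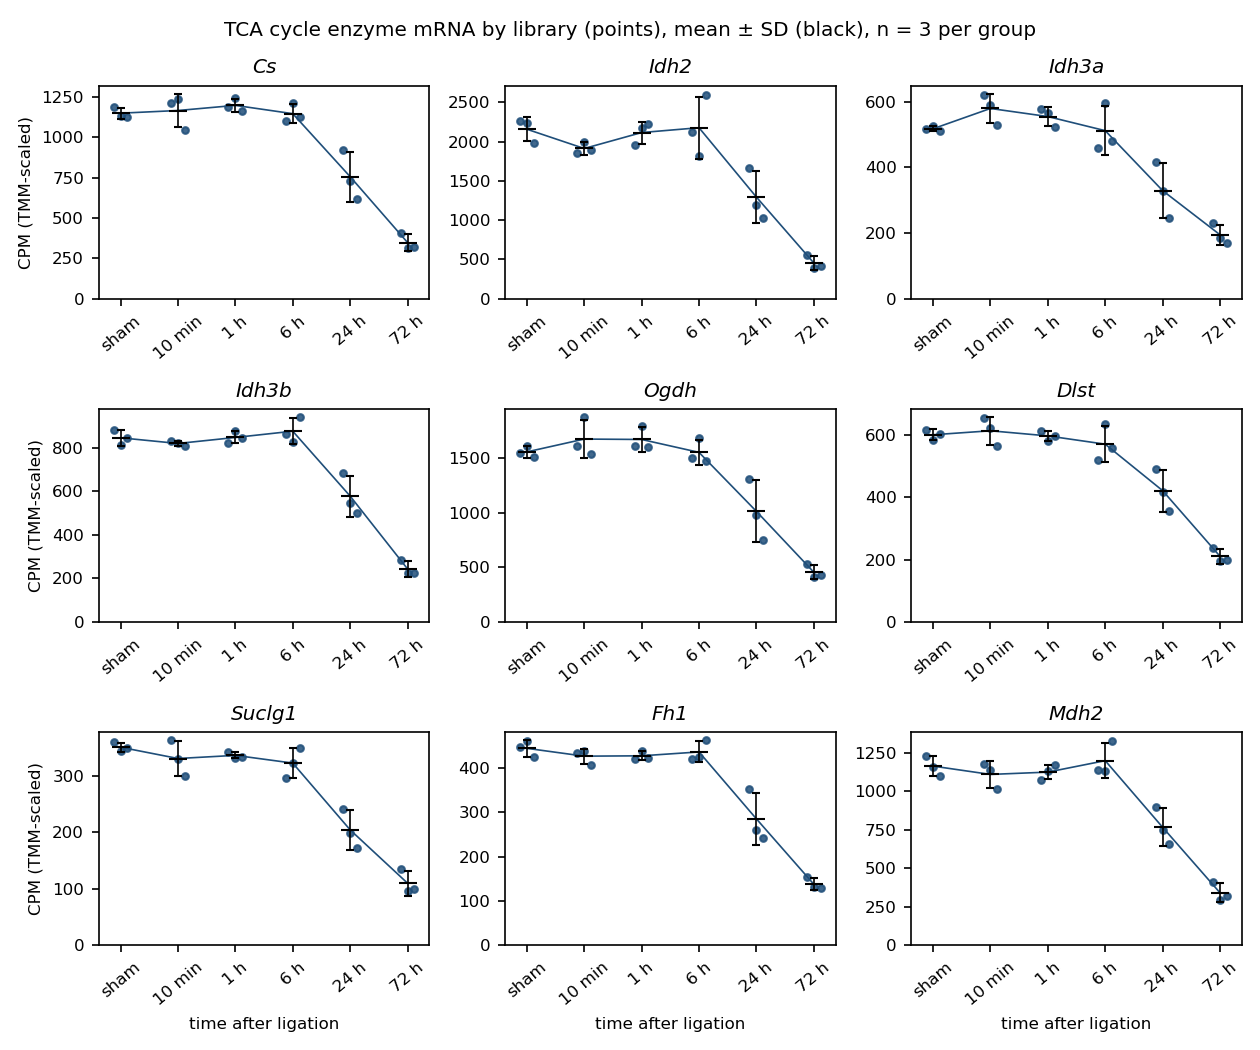
Level in CPM (TMM-scaled, linear axis from 0) of the 9 TCA cycle genes in each of the 18 libraries (points), with the group mean and SD (black) and a line through the means, against time after ligation. The sham, 10 min, 1 h and 6 h libraries lie at similar heights, and all 3 libraries at 24 h and at 72 h lie below the sham libraries in every panel.

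Cs encodes citrate synthase, which joins acetyl-CoA to oxaloacetate at the entry of the cycle, and lies at chr10:128337734-128362479 (mm10, plus strand). In sham it stood at 1188, 1135 and 1125 CPM, then at 924, 728 and 617 CPM at 24 h and 408, 316 and 322 CPM at 72 h. At 10 min, 1 h and 6 h its libraries lay between 1048 and 1243 CPM, over the sham range and to both sides of it. Cs fell by 0.60 ± 0.13 (log2, SE; edgeR adjusted p = 0.00148) at 24 h and by 1.72 ± 0.14 (edgeR adjusted p = 4.9e-09) at 72 h. Cs was also the gene whose profile lay closest to that of the other 8: its Pearson correlation with their mean over the 18 libraries was 0.998, a description of points that share libraries and scaling.

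Idh2 (chr7:80094846-80115392, minus strand) encodes the mitochondrial NADP+-dependent isocitrate dehydrogenase, which makes NADPH in the matrix. It was the most abundant of the 9 genes. Its sham libraries held 2258, 2234 and 1979 CPM, those of 10 min 1849, 1997 and 1889 CPM, and those of 1 h 1956, 2169 and 2218 CPM. At 6 h the libraries were further apart, at 2123, 1810 and 2595 CPM, with a mean of 2176 ± 395 CPM (SD, n = 3), and overlapped sham. At 24 h they held 1663, 1191 and 1028 CPM and at 72 h 559, 387 and 422 CPM, all below the lowest sham library. Idh2 fell by 0.74 ± 0.17 (log2, SE; edgeR adjusted p = 0.00213) at 24 h and by 2.24 ± 0.18 (edgeR adjusted p = 4.86e-09) at 72 h, so that its level fell by 78.9%.

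Idh3a (chr9:54586334-54604661, plus strand) and Idh3b (chr2:130279309-130284547, minus strand) encode subunits of the NAD+-dependent isocitrate dehydrogenase, the enzyme that carries isocitrate forward in the cycle; Idh3a encodes the catalytic subunit. The sham libraries held 516, 525 and 509 CPM of Idh3a. At 10 min they held 619, 588 and 530 CPM, the only case at 10 min in which a gene's 3 libraries lay outside its sham range. This difference of 0.16 ± 0.15 (log2, SE) did not pass the test (edgeR adjusted p = 0.907). At 6 h the Idh3a libraries were at 459, 596 and 479 CPM and overlapped sham, at 24 h at 415, 327 and 246 CPM, and at 72 h at 229, 186 and 170 CPM. Idh3a fell by 0.65 ± 0.15 at 24 h and by 1.41 ± 0.16 at 72 h (log2, SE; edgeR adjusted p = 0.0025 and 2.95e-07). Idh3b was at 884, 811 and 843 CPM in sham, 684, 547 and 503 CPM at 24 h and 284, 223 and 224 CPM at 72 h. It fell by 0.55 ± 0.12 and by 1.80 ± 0.12 (log2, SE), with edgeR adjusted p = 0.00121 and 7.25e-10. Idh3b shares 5 of its 3422 exonic bases with Nop56 on the other strand, the only exon overlap found for the 9 genes in the GENCODE annotation.

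Ogdh (chr11:6291633-6356642, plus strand) encodes the decarboxylating subunit of the alpha-ketoglutarate dehydrogenase complex, and Dlst (chr12:85110833-85134845, plus strand) encodes the subunit that transfers the succinyl group to CoA. Ogdh was at 1546, 1613 and 1508 CPM in sham, at 1308, 982 and 746 CPM at 24 h and at 528, 414 and 426 CPM at 72 h. It fell by 0.62 ± 0.16 and by 1.77 ± 0.16 (log2, SE), with edgeR adjusted p = 0.00398 and 2.45e-08. Dlst was at 617, 583 and 602 CPM in sham, 491, 418 and 356 CPM at 24 h and 238, 196 and 199 CPM at 72 h, again with no overlap between the groups. Its falls were among the smaller ones, 0.51 ± 0.12 and 1.51 ± 0.12 (log2, SE), with edgeR adjusted p = 0.00206 and 5e-09.

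Suclg1 (chr6:73248382-73276911, plus strand) encodes the alpha subunit of succinyl-CoA ligase, the step that makes GTP or ATP directly. Its level was 359, 343 and 349 CPM in sham, 342, 332 and 334 CPM at 1 h, 242, 198 and 172 CPM at 24 h and 136, 95.1 and 98.7 CPM at 72 h. The 1 h libraries lay just below the sham range, the only such case among the 9 genes at 1 h, and did not pass the test. Suclg1 fell by 0.78 ± 0.13 at 24 h, the largest fall of the 9 genes at that time, and by 1.67 ± 0.14 at 72 h (log2, SE; edgeR adjusted p = 1.98e-04 and 6.57e-09).

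Fh1 (chr1:175600374-175625635, minus strand) encodes fumarate hydratase, which turns fumarate into malate, and Mdh2 (chr5:135778480-135790398, plus strand) encodes the mitochondrial malate dehydrogenase, which regenerates oxaloacetate. Fh1 was at 447, 461 and 424 CPM in sham, 352, 261 and 243 CPM at 24 h and 153, 132 and 128 CPM at 72 h. It fell by 0.64 ± 0.12 and by 1.69 ± 0.12 (log2, SE), with edgeR adjusted p = 3.38e-04 and 1.29e-09. Mdh2 was at 1230, 1160 and 1099 CPM in sham, 898, 745 and 655 CPM at 24 h and 411, 293 and 318 CPM at 72 h. It fell by 0.60 ± 0.13 and by 1.77 ± 0.14 (log2, SE), with edgeR adjusted p = 0.00158 and 3.82e-09. Both genes had groups that did not overlap at these times.

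Set against all genes tested, the counts of the 9 genes read as follows, with a gene called at an edgeR adjusted p under 0.05. At 10 min 0 of 9 were called, against 0.0736% of all genes, at 1 h 0 of 9 against 0.294%, and at 6 h 0 of 9 against 28.4%. At these 3 times 0 of the 9 had an unadjusted edgeR p under 0.05, and DESeq2 called 0 as well. At 24 h 9 of 9 were lower, where 43.8% of all genes were called, 20.2% lower and 23.7% higher. At 72 h 9 of 9 were lower, where 66.4% were called, 32.2% lower and 34.2% higher. The median log2 fold change of the 9 genes was -0.62 at 24 h and -1.72 at 72 h, beside a median of 0.008 and 0.028 over all genes tested. Across all genes tested, 1.61% had a lower log2 fold change than Idh2 at 72 h and 8.53% a lower one than Idh3a. With library totals as the only scaling, the 9 genes were still all called lower at both times; their median at 72 h was then -1.14, and that of all genes 0.61.

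Between successive times, 0 of 9 were called at 1 h against 10 min (0.307% of all genes called) and 0 of 9 at 6 h against 1 h (24.5% called). From 6 h to 24 h 9 of 9 fell (27.8% of all genes called, 13.7% lower and 14.2% higher), by a median of 0.62 on the log2 scale. From 24 h to 72 h 9 of 9 fell again (50.5% called, 26.1% lower and 24.4% higher), by a median of 1.12. The later step was between 0.76 ± 0.15 (Idh3a) and 1.51 ± 0.17 (Idh2) on the log2 scale, with edgeR adjusted p from 1.39e-07 to 4.98e-04. The calls from 6 h to 24 h depended on the fit: 1 of 9 was called with only those 2 groups in the model, where the median was also -0.62, and 5 of 9 with library totals as the only scaling, where it was -0.32. The test over all 5 times called 9 of 9 (78.4% of all genes called).

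**Figure D2:**
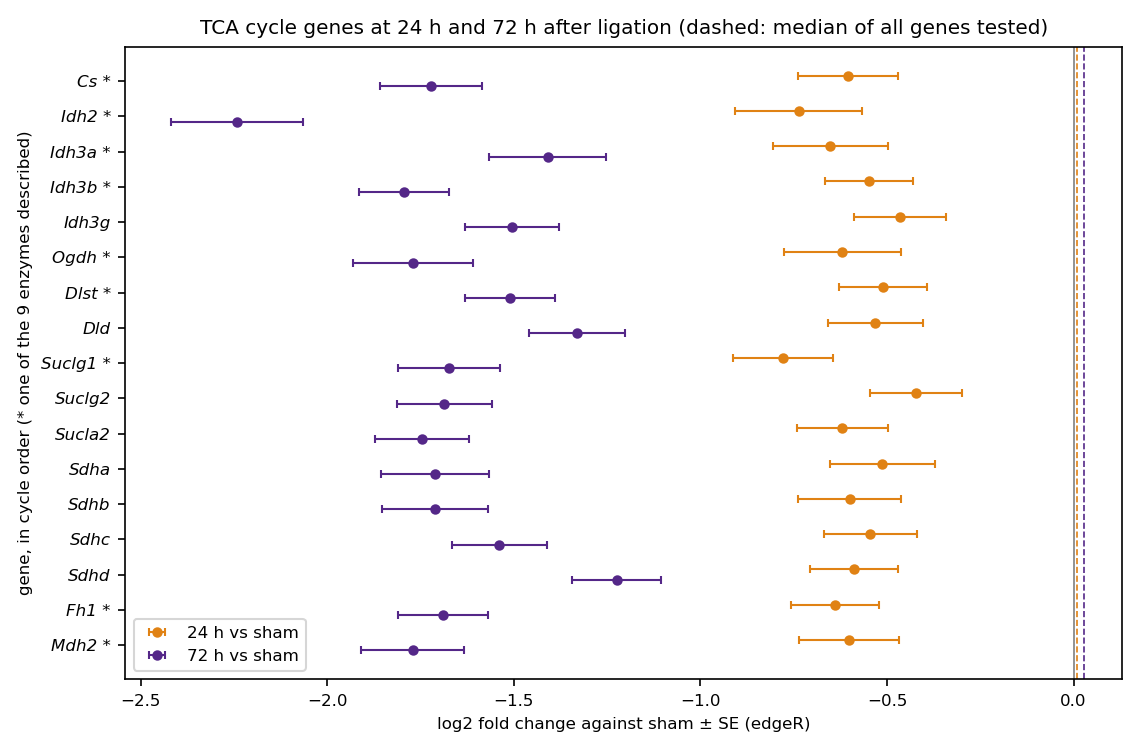
Log2 fold change against sham with its SE (edgeR, horizontal axis) for the 9 genes and 8 further genes of the TCA cycle in cycle order (vertical axis), at 24 h (orange) and 72 h (purple); asterisks mark the 9 and dashed lines the median of all genes tested. All genes shown lie left of both dashed lines, with Idh2 furthest left at 72 h (-2.24) and Sdhd least far (-1.23).

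The 3 libraries at 24 h were spread further than those of any other group. The mean of the 9 genes relative to sham was -0.34, -0.69 and -0.92 in replicates 1, 2 and 3 at 24 h (log2), against -1.50, -1.88 and -1.85 at 72 h and -0.09 to 0.04 at 6 h. Leaving out 1 library at a time moved the median fall of the 9 genes at 24 h between 0.48 and 0.81, and all 9 stayed called. Cardiomyocyte markers summed to 47850, 48130 and 31830 CPM in these 3 libraries, and 7 neutrophil markers to 177, 44.0 and 755 CPM. Replicate 3, with the lowest level of all 9 genes, thus had the lowest cardiomyocyte and the highest neutrophil sum, and the part of these in the result was not tested.

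A further 8 genes for subunits and enzymes of the cycle were also lower at the later times. None of them was called at 10 min, 1 h or 6 h, and 8 of 8 were called lower at 24 h (median -0.54) and at 72 h (median -1.61). Of all genes tested, 28.4% were called at 6 h, 20.2% were called lower at 24 h and 32.2% lower at 72 h. The 24 h call was lost in 5 of 29 alternatives for Suclg2 (edgeR adjusted p = 0.107 with library totals and 0.0514 without 24 h replicate 3), in 2 for Idh3g and in 2 for Sdha. Succinate dehydrogenase, which is also complex II of the respiratory chain, has its flavoprotein and iron-sulphur subunits encoded by Sdha and Sdhb and its membrane anchors by Sdhc and Sdhd. At 72 h Sdha and Sdhb each fell by 1.71 ± 0.14, Sdhc by 1.54 ± 0.13 and Sdhd by 1.23 ± 0.12 on the log2 scale. Idh3g, the regulatory gamma subunit of the NAD+-dependent isocitrate dehydrogenase, fell by 1.51 ± 0.13, and Dld, the dihydrolipoamide dehydrogenase shared with pyruvate dehydrogenase, by 1.33 ± 0.13. The beta subunits of succinyl-CoA ligase, Sucla2 (ATP-forming) and Suclg2 (GTP-forming), fell by 1.75 ± 0.13 and by 1.69 ± 0.13. Each of these 8 genes had 72 h libraries below every sham library, again without a count of such cases over all genes tested.

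Relative to the mean of the 9 genes, the levels of 3 of them at 72 h did not overlap sham. These are proportions in bulk tissue, and the part of the changing cell types in them was not tested. Each gene's log2 CPM was set against the mean of the 9 in the same library, which cancels the library scaling. That mean includes the gene itself, so a large shift in a single gene moves the others the opposite way. At 72 h a positive shift means a smaller fall than that of the mean, not a rise in level. Relative to sham, this value shifted by -0.52 in Idh2, by 0.32 in Idh3a and by 0.23 in Dlst at 72 h. In Idh2 this relative level was 1.41, 1.43 and 1.30 in sham and 0.93, 0.78 and 0.88 at 72 h, so that the groups did not overlap. In Idh3a it was -0.72, -0.66 and -0.66 in sham and -0.35, -0.28 and -0.43 at 72 h, and in Dlst -0.46, -0.51 and -0.42 in sham and -0.30, -0.20 and -0.21 at 72 h, both without overlap. For each of these 3 genes the exact two-sided permutation p was 0.1, the smallest that 3 libraries against 3 allow, so this design cannot take the comparison below 0.05. The other 6 genes stayed between -0.06 and 0.05 of their sham position at 72 h, with overlapping libraries. Before 72 h, smaller shifts without overlap with sham were those of Idh3a at 10 min (0.17), Cs and Fh1 at 1 h (0.05 and -0.06), and Suclg1 at 6 h (-0.10). At 24 h they were those of Suclg1 (-0.14), Dlst (0.13), Idh3b (0.09) and Cs (0.03). These shifts before 72 h were not tested. Complete separation of 3 libraries from 3 corresponds to an exact two-sided permutation p of 0.1 at best. With 9 genes looked at over several times, some such cases can arise without a change. How many such cases other sets of genes would give was not counted.

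**Figure D3:**
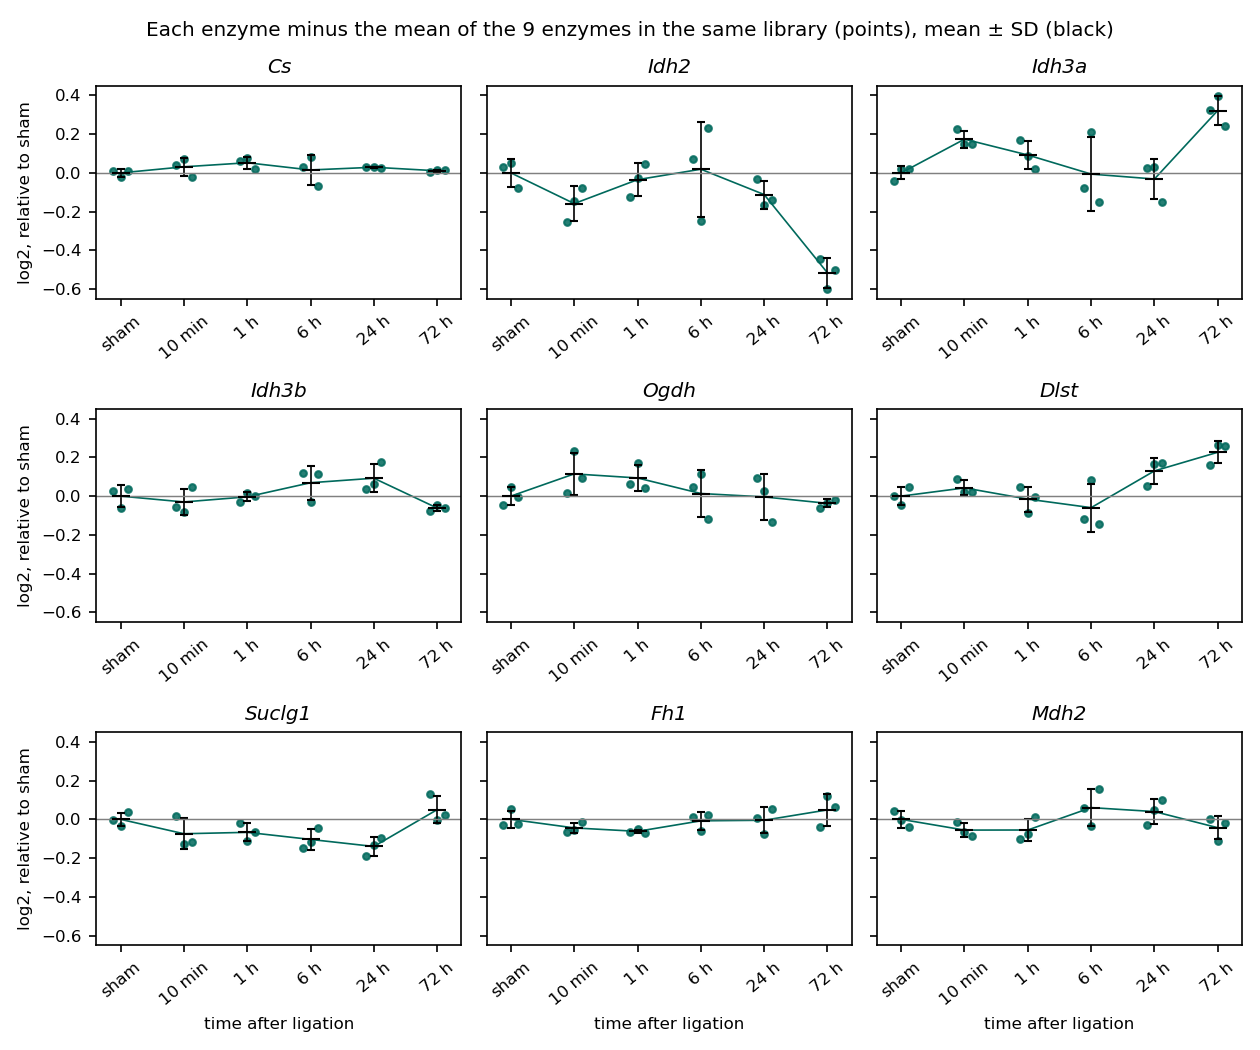
Log2 CPM of each of the 9 genes minus the mean of the 9 in the same library, relative to the sham mean (vertical axis, log2), in each library (points) with group mean and SD (black), against time after ligation. Cs stays close to 0 throughout. At 72 h Idh2 stands at -0.52 relative to the mean, and Idh3a and Dlst, whose own levels also fell, at 0.32 and 0.23.

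To set levels of different genes side by side, FPKM was used, which divides the counts by exon length and by the library total. This length counts all annotated exons of a gene, 9559 bases for Dlst and 2588 for Idh2, and can exceed that of the transcripts present. The order and the size of the ratios depend on it. In sham CPM, which has no length in it, Dlst (mean 600.5) stood above Idh3a (517.1), Fh1 (443.9) and Suclg1 (350.3). In sham the order by FPKM was Idh2 at 771 ± 34.5 FPKM (SD, n = 3), Mdh2 at 302 ± 11.9, Ogdh at 264 ± 4.40, Idh3b at 229 ± 12.4 and Cs at 184 ± 5.46 FPKM. Fh1 followed at 121 ± 1.87, then Idh3a at 94.5 ± 1.57, Suclg1 at 70.3 ± 2.66 and Dlst at 58.2 ± 2.63 FPKM. The libraries of each pair of neighbours in this order did not overlap, and Idh2 stood 13.2-fold above Dlst. At 72 h the means kept the same order, from 245 ± 44.0 FPKM for Idh2 to 30.6 ± 2.73 for Dlst, but the range had narrowed to 7.98-fold. Of the neighbours at 72 h, those in the pairs Mdh2 and Ogdh, Ogdh and Idh3b, Idh3b and Cs, Fh1 and Idh3a, and Suclg1 and Dlst overlapped and did not differ beyond their spread. FPKM is scaled by the library total and therefore shows smaller falls than the TMM-scaled CPM.

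Ratios of FPKM in the same library were taken between cytosolic and mitochondrial counterparts and between subunits, as a description of bulk tissue. Idh1 encodes the cytosolic and peroxisomal NADP+-dependent isocitrate dehydrogenase, the counterpart of Idh2. Idh1 was at 55.6, 54.7 and 51.8 CPM in sham and 64.4, 60.0 and 62.7 CPM at 72 h, a difference of 0.21 ± 0.19 (log2, SE) that was not called (edgeR adjusted p = 0.337), and it was not called at 24 h either. It was called higher at 72 h in 5 of 29 alternatives, among them library totals as the only scaling (edgeR adjusted p = 0.0019). The FPKM ratio of Idh1 to Idh2 was 0.0230, 0.0229 and 0.0244 in sham, 0.0289, 0.0340 and 0.0342 at 24 h, and 0.107, 0.145 and 0.139 at 72 h. The libraries of 24 h and 72 h all lay above those of sham, with a mean of 0.130 ± 0.020 (SD, n = 3) at 72 h against 0.0234 ± 0.0009 in sham. At 6 h the ratio was 0.0119, 0.0292 and 0.0129, to both sides of sham. Idh1 was then at 27.1, 56.6 and 35.8 CPM and was not called (edgeR adjusted p = 0.0921). It was called lower at 6 h in 3 of 29 alternatives, among them the fit without 6 h replicate 2 (edgeR adjusted p = 8.54e-04).

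For malate dehydrogenase the cytosolic gene moved with the mitochondrial one. Mdh1, the cytosolic counterpart of Mdh2 in the malate-aspartate shuttle, was at 1766, 1799 and 1682 CPM in sham, 1386, 1063 and 883 CPM at 24 h and 650, 568 and 516 CPM at 72 h. It fell by 0.66 ± 0.14 and by 1.60 ± 0.14 (log2, SE), with edgeR adjusted p = 9.49e-04 and 1.42e-08. The FPKM ratio of Mdh1 to Mdh2 was 1.99 to 2.15 in sham and 2.19 to 2.69 at 72 h, just above the sham range, and overlapped it at every other time.

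Between subunits, the FPKM ratio of Idh3a to Idh3b was 0.394 to 0.437 in sham and 0.510 to 0.561 at 72 h, above the sham range, and at 10 min it was also above it, at 0.442 to 0.503. The ratio of Idh3a to Idh3g was 0.493 to 0.537 in sham and overlapped it at 72 h (0.517 to 0.581), but lay above it at 10 min (0.574 to 0.646) and below it at 24 h (0.378 to 0.485). The ratio of Ogdh to Dlst was 4.39 to 4.85 in sham and 3.70 to 3.90 at 72 h, below the sham range. The ratio of Suclg1 to the sum of both beta subunits overlapped sham at every time, and was 0.364 to 0.413 in sham and 0.375 to 0.442 at 72 h. Between the beta subunits, the ratio of Sucla2 to Suclg2 was 5.07 to 5.42 in sham. It lay below that range at 6 h (4.40 to 4.64) and 24 h (4.49 to 4.59), and overlapped it at 72 h (4.14 to 6.03). With 3 libraries a group these ratios were given as ranges, with no test.

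**Figure D4:**
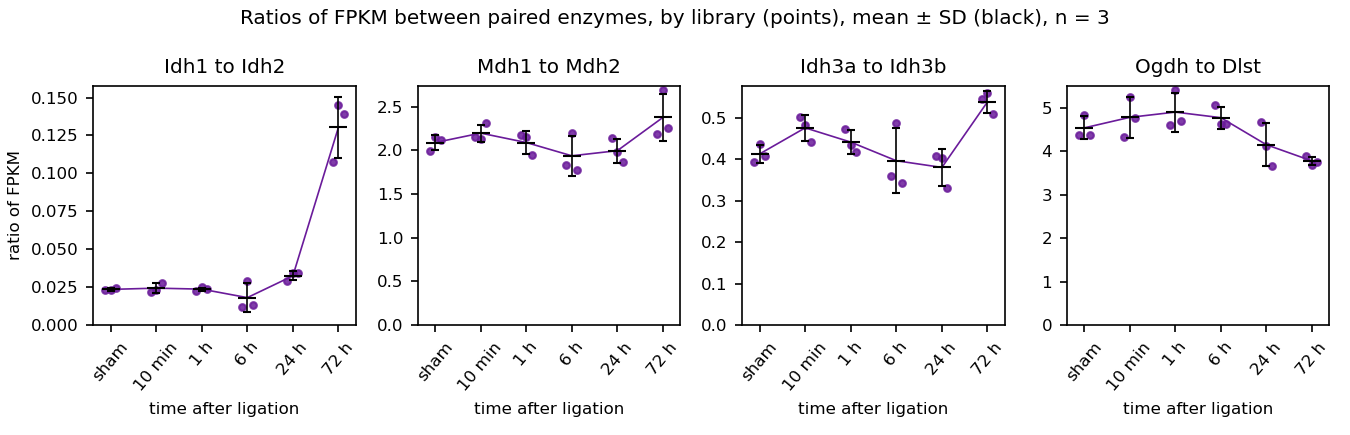
Ratio of FPKM (linear axis from 0) for Idh1 to Idh2, Mdh1 to Mdh2, Idh3a to Idh3b and Ogdh to Dlst in each library (points), with group mean and SD (black, n = 3), against time after ligation. The Idh1 to Idh2 ratio goes from 0.0234 in sham to 0.130 at 72 h, while the Mdh1 to Mdh2 ratio changes from 2.09 to 2.38.

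Upstream of the cycle, 13 genes carry pyruvate into it or regulate that step, and most were lower at 24 h and 72 h. One of the 13, Pdk4, encodes a kinase that switches the pyruvate dehydrogenase complex off. Pdk4 was at 167, 133 and 106 CPM in sham. All its libraries at 10 min (204, 535 and 767 CPM) and 1 h (546, 339 and 287 CPM) lay above sham, not called by edgeR (adjusted p = 0.346 and 0.626), while DESeq2 called it at 10 min (adjusted p = 0.0211). It was at 2370, 2210 and 2950 CPM at 6 h, when 0 of the 9 TCA cycle genes were called; it rose by 4.21 ± 0.56 (log2, SE; edgeR adjusted p = 1.49e-04). At 24 h it was at 328, 122 and 573 CPM, overlapping sham (edgeR adjusted p = 0.0456; the call was lost in 18 of 29 alternatives, with an edgeR adjusted p = 0.288 without 24 h replicate 3), and at 72 h at 70.1, 60.0 and 60.5 CPM, below sham but not called (edgeR adjusted p = 0.0703; called in 4 of 29 alternatives, among them DESeq2 with an adjusted p = 0.0482). Of the 13 genes 8 were lower and 2 higher at 24 h (median -0.45), and 11 were lower and 1 higher at 72 h (median -1.37). Over all genes tested, 20.2% were lower and 23.7% higher at 24 h, and 32.2% lower and 34.2% higher at 72 h. Pdhb, a subunit of the complex's pyruvate dehydrogenase component, fell by 1.63 ± 0.13 at 72 h, Mpc1, a subunit of the mitochondrial pyruvate carrier, by 1.37 ± 0.11, and Pdk2, another kinase of the complex, by 2.25 ± 0.18 (log2, SE). The gene that was higher at 72 h was Pdk3, another kinase isoform, named here after its values were seen, with a log2 fold change of 2.73. Its level was low: 1.26, 1.71 and 1.20 CPM in sham and 7.57, 9.29 and 10.8 CPM at 72 h. Pdk2 was still at 101, 64.2 and 71.4 CPM at 72 h.

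Of 21 genes for side reactions, carriers and cytosolic counterparts, 11 were lower and 4 higher at 24 h (median -0.37), and 13 lower and 3 higher at 72 h (median -1.36). The shares of all genes tested were 20.2% lower and 23.7% higher at 24 h, and 32.2% lower and 34.2% higher at 72 h. Got2, the mitochondrial aspartate aminotransferase, and Slc25a11, the carrier that exchanges malate for alpha-ketoglutarate, fell by 1.90 ± 0.14 and by 1.65 ± 0.14 at 72 h (log2, SE). Slc25a1, the carrier that exports citrate to the cytosol, went the other way: it was at 6.72, 6.48 and 6.62 CPM in sham, 9.06, 14.1 and 11.3 CPM at 24 h and 21.8, 20.1 and 22.7 CPM at 72 h. It rose by 0.80 ± 0.14 and by 1.70 ± 0.14 (log2, SE), with edgeR adjusted p = 2.49e-04 and 7.41e-09. Acod1, which makes itaconate from the cycle intermediate cis-aconitate in activated macrophages, had 1, 2 and 0 counts in the sham libraries. It had 184, 99 and 25 counts at 6 h and 27, 15 and 535 counts at 24 h, higher at both times (edgeR adjusted p = 0.0171 and 0.00485), and 50, 35 and 45 counts at 72 h, not called (edgeR adjusted p = 0.0659). The call at 6 h was lost without 6 h replicate 1 (edgeR adjusted p = 0.0677) and without each sham library in turn, and that at 72 h was gained without any one library of 24 h. At 24 h Acod1 lost its call in 3 of 28 alternatives, among them the fit of only the 2 groups compared (edgeR adjusted p = 0.0551). Its highest libraries, 24 h replicate 3 and 6 h replicate 1, were also those with the highest summed neutrophil markers, 755 and 772 CPM, and their part in this result was not tested.

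Among 12 regulators of mitochondrial genes, 9 were lower and 3 higher at 72 h (median -0.89), and 6 were lower and 3 higher at 24 h. Among all genes tested, 32.2% were lower and 34.2% higher at 72 h, and 20.2% lower and 23.7% higher at 24 h. The 3 regulators higher at 24 h were thus near the share of all genes. At 6 h 5 of the 12 were called, 3 higher and 2 lower, where 28.4% of all genes were called. Ppargc1a encodes PGC-1alpha, a coactivator that drives mitochondrial biogenesis. It was at 73.2, 74.9 and 74.9 CPM in sham, 67.6, 64.8 and 56.1 CPM at 6 h, 66.6, 44.2 and 30.5 CPM at 24 h and 23.9, 18.1 and 20.6 CPM at 72 h. Ppargc1a fell by 0.66 ± 0.20 and by 1.84 ± 0.21 (log2, SE) at 24 h and 72 h, with edgeR adjusted p = 0.0143 and 8e-07, and its log2 fold change at 6 h of -0.24 ± 0.20 was not called. Ppargc1a lost its 24 h call in 4 of 29 alternatives, among them the fit without 24 h replicate 3 (edgeR adjusted p = 0.0515). Another was the fit of only the 2 groups compared (edgeR adjusted p = 0.0734). Perm1, a muscle regulator that acts with it, was already lower at 6 h, by 0.83 ± 0.21 (edgeR adjusted p = 0.00704), when none of the 9 TCA cycle genes was called, and fell by 2.05 ± 0.21 at 72 h. Esrra, an oestrogen-related receptor, and Tfb2m, a factor for mitochondrial transcription, fell by 1.25 ± 0.13 and by 1.06 ± 0.11 at 72 h.

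Other mitochondrial and metabolic lists had medians below sham by different amounts at 72 h, while the glycolytic list had a positive median at 24 h. Their counts stand beside 20.2% lower and 23.7% higher of all genes tested at 24 h, and 32.2% lower and 34.2% higher at 72 h. All 15 genes of fatty acid oxidation were lower at 72 h (median -1.84) and 14 at 24 h (median -0.66); Acaa2, Acadm and Hadhb, enzymes of beta-oxidation, fell by 2.13 ± 0.16, 2.05 ± 0.15 and 1.96 ± 0.15 at 72 h (log2, SE). All 13 mitochondrially encoded genes were lower at 72 h (median -2.19) and 4 at 24 h; mt-Nd6, mt-Atp6 and mt-Nd4, which encode respiratory chain and ATP synthase subunits, fell by 2.19 ± 0.15, 2.85 ± 0.23 and 2.11 ± 0.17 at 72 h. All 15 genes of mitochondrial membranes, import and protein quality were lower at 72 h with a smaller median of -1.11; Hspa9, the matrix chaperone, Immt, of the cristae junctions, and Vdac1, the outer membrane channel, fell by 1.38 ± 0.11, 1.43 ± 0.11 and 1.40 ± 0.11. Of 15 glycolytic genes 3 were lower and 7 higher at 24 h (median 0.35), and 9 lower and 3 higher at 72 h (median -0.31). Of these, Hk2, hexokinase, Ldhb, the heart subunit of lactate dehydrogenase, and Pfkm, the muscle phosphofructokinase, fell by 64.7%, 77.7% and 75.0% at 72 h (largest edgeR adjusted p = 2.52e-08).

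Measured in the same libraries, the mean of the 9 TCA cycle genes fell along with that of the cardiomyocyte markers. Of the 12 markers 8 were lower at 24 h (median -0.75) and 12 at 72 h (median -1.56), and none was at 0 in any group. Across all genes tested, 20.2% were lower at 24 h, and 32.2% lower and 34.2% higher at 72 h. Single markers ranged widely at 72 h, with log2 fold changes from -2.32 to -1.19. The mean log2 CPM of the 9 genes minus that of the markers, relative to sham, was 0.07 ± 0.17 (SD, n = 3) at 24 h and -0.006 ± 0.025 at 72 h. These SDs are over libraries, not over markers. By library the difference was 0.17, -0.12 and 0.17 at 24 h. At 6 h it was 0.141, 0.185 and 0.037, above every sham library (at most 0.015). The same difference at 72 h was -0.18 ± 0.03 against the 8 other TCA cycle genes, -0.64 ± 0.13 against the membrane and import genes and -0.66 ± 0.10 against the pyruvate genes. It was -1.14 ± 0.06 against the side reactions, -1.22 ± 0.17 against the regulators and -1.38 ± 0.15 against glycolysis. It was above 0 against fatty acid oxidation (0.15 ± 0.05) and the mitochondrially encoded genes (0.61 ± 0.17). At 72 h all 8 macrophage markers and all 7 fibroblast markers were higher (medians 3.66 and 4.71), and 5 of 6 endothelial markers were lower (median -0.74). The part of these cell types in the fall of the TCA cycle genes was not tested.

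**Figure D5:**
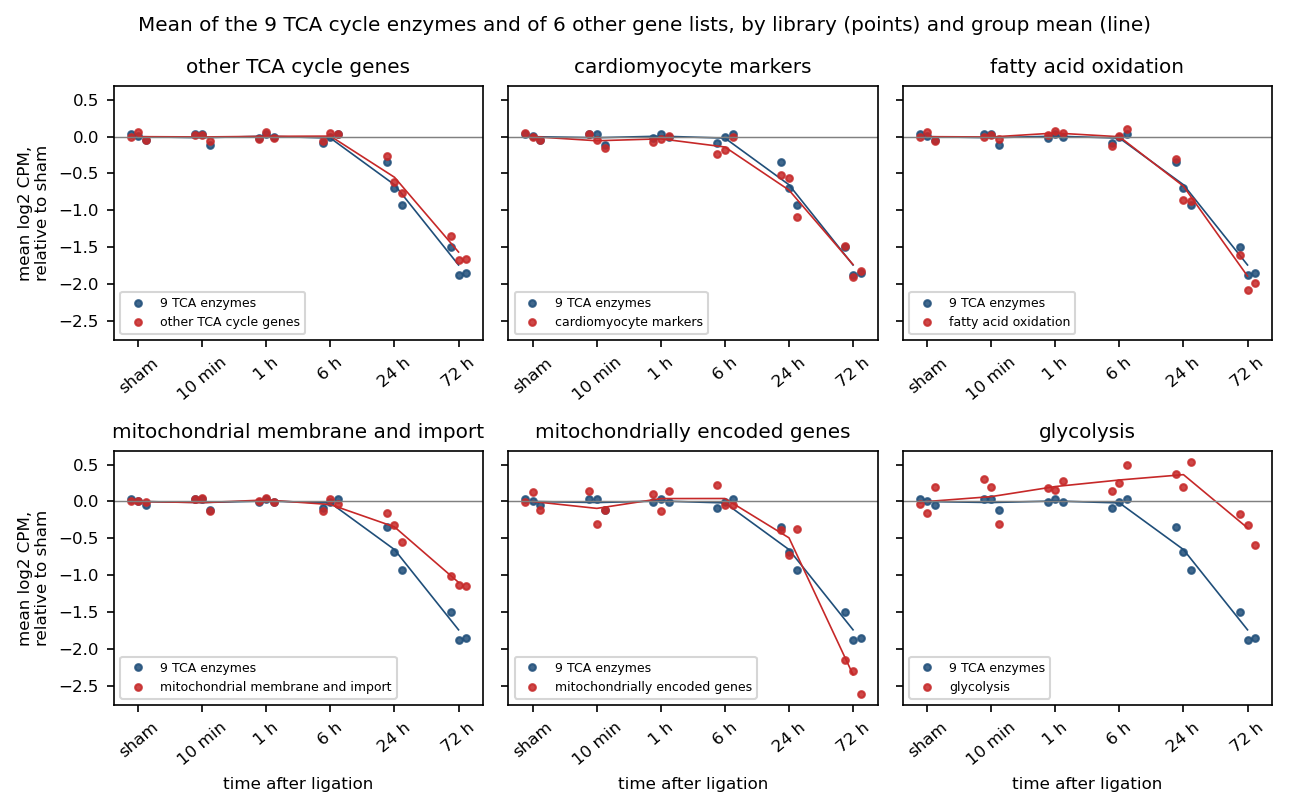
Mean log2 CPM relative to the sham mean (vertical axis, log2) of the 9 TCA cycle genes (blue) and of 6 other gene lists (red), in each library (points) with a line through the group means, against time after ligation. At 72 h the mean of the TCA cycle genes (-1.74) lies on the mean of the cardiomyocyte markers, 0.64 below the membrane and import genes and 0.61 above the mitochondrially encoded genes.

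The 5 genes whose profile over the 18 libraries was most like the mean of the 9 were subunits of respiratory complexes and a membrane channel. They were Atp5a1 and Atp5f1, subunits of ATP synthase (Pearson r = 0.999 and 0.998), Vdac1 (r = 0.999), Ndufa10, a subunit of complex I (r = 0.998), and Uqcrfs1, the Rieske protein of complex III (r = 0.998). Their log2 fold changes at 72 h were -1.70 ± 0.14, -1.37 ± 0.12, -1.40 ± 0.11, -1.96 ± 0.13 and -1.68 ± 0.13 (SE). Among the 9 genes themselves, the correlation of each with the mean of the other 8 was between 0.971 (Idh3a) and 0.998 (Cs). These values describe 18 points that share their libraries and their scaling, and carry no test.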

How the data were processed

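RNA-seq of 18 mouse left ventricle libraries was read from the raw counts per gene that the authors deposited, with the FPKM values the authors deposited beside them. Per the submitters' processing notes, cutadapt 1.18, HISAT2 2.1.0 and featureCounts were used with mm10; annotation and strand setting are not given in the sources used here. The deposited FPKM columns of 6 h replicates 2 and 3 hold each other's scaled counts, so FPKM was rebuilt from the counts and the lengths in the deposited tables. Counts were fitted with edgeR 4.0.16 in R 4.3.3 (quasi-likelihood, robust, TMM, filterByExpr, 1 mean for each of the 6 groups), with Benjamini-Hochberg adjustment over 16311 genes and a threshold of 0.05; the script was tested on simulated data. Alternatives used DESeq2 1.42.0 and limma 3.58.1. The table gave symbols for 30489 IDs, and 94 had none. Depth was 18199172 to 25062351 counts a library.

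Samples were grouped by the time in the labels. Named were the 9 genes, 8 other TCA cycle genes (the list as first written held 1 more, which is not reported here and was left out of the list's counts and means), 3 genes of each further pathway list (those with the lowest adjusted p at 72 h), Idh1, Mdh1, Acod1, Pdk4 and Ppargc1a, and the 5 genes most like the mean of the 9. The genes and lists were chosen with earlier results of these data known. Gene positions are those of GENCODE M21. Neutrophil, endothelial, atrial, erythroid and adipocyte markers were also summed: erythroid sums were 494 to 739 CPM in sham and 211 to 319 CPM at 72 h, and adipocyte sums were at most 0.583 CPM in every library. The NRF1 motif was shortened to its core after the matches of a longer form, found for 0 of the 8 genes with a promoter window, had been counted.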

Additional observations from a re-analysis of the deposited data

Results flagged for a closer look

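The change of the 9 TCA cycle genes from sham was not the same at successive times. All 9 had a lower level at 24 h than at 6 h and all 9 a lower level at 72 h than at 24 h, by edgeR tests of the difference itself at an adjusted p under 0.05. The median differences were -0.62 and -1.12 on the log2 scale. From 24 h to 72 h, Idh2 fell by 1.51 ± 0.17 and Idh3a by 0.76 ± 0.15 (log2, SE).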

How the results depend on the processing

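The 29 alternatives comprised 18 fits that each left out 1 library and 11 other settings of scaling, filter, model or unit. All 9 genes were called lower at 24 h and at 72 h in 29 of 29, with a largest adjusted p of 0.047 and 4.06e-04, and 0 of 9 were called at 10 min, 1 h and 6 h in 29 of 29. The median log2 fold change ranged from -0.81 to -0.43 at 24 h and from -1.85 to -1.14 at 72 h. For 24 h against 6 h, all 9 were called in 23 of 29: the count became 5 with library totals only, 1 with only the 2 groups compared and 2 with limma on log2(FPKM + 1) without a filter, and in both filtered limma fits of FPKM Idh3a, Ogdh and Dlst lost their calls. Without replicate 2 of 6 h, Dlst lost its call there (adjusted p = 0.0532). For 72 h against 24 h, Idh3a was not called in the 3 FPKM fits. Counting each gene, comparison and alternative separately, calls of single named genes were lost 125 times and gained 26 times, and no called value reversed. The cause was not tested. With library totals the median of all genes was 0.20 at 24 h and 0.61 at 72 h, against 0.008 and 0.028 in the reported fit. No clear pairing of the libraries by replicate number was seen, though the check cannot exclude pairing or a shared batch. The 45 same-numbered pairs correlated from -0.26 to 0.25 in their deviations from the group mean. Their median was 0.035, against -0.013 for pairs with different numbers, and 9 of 18 libraries correlated best with their own number. The fit with a replicate block called 9 of 9 at 24 h and 72 h; of the other named genes, Pdk4 and Tfb2m lost their 24 h calls in it (adjusted p = 0.0793 and 0.0507). The 9 genes had at least 3101 counts in every library; whether depth or the number of libraries, 3 a group, limits the results was not tested.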
